A study of Mus musculus with 8 samples.

Results

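The cell cycle genes described here are 44 genes chosen by name for their parts in cell division, and split by role into 10 genes of G1 and S phase entry, 13 of DNA replication, 16 of G2 and mitosis and 5 inhibitors. Of these, 42 had a probe set that names 1 gene, out of 18194 such genes on the arrays, and 41 passed the filter on low signals and were tested among 10913 genes. Tyms, the thymidylate synthase gene, fell below the filter, and the expression of Ccnb1 and Trp53 was not analysed here.

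RNA was measured in whole yolk sac at embryonic day 9.5 on 8 arrays in 4 groups of 2. EC-N1ICD yolk sacs (Tie2 Tg/0; ROSA +/N1ICD, C57BL6 strain) carried the active intracellular part of Notch1, switched on by a Tie2-driven Cre, and were set against wild type yolk sacs of the same set (Tie2 0/0; ROSA +/+). EC-Rbpj-KO yolk sacs (Tie2-Cre; Rbpj flox/flox, mixed strain) lacked Rbpj, the DNA-binding partner of the Notch intracellular domain, in the Tie2-Cre lineage and were set against the wild type of the EC-Rbpj-KO set, for which the labels give no genotype. Tie2-Cre acts in endothelial cells and in blood cells descended from them, which are only some of the cells in a yolk sac. The labels do not say in words that the 2 arrays of a group came from separate embryos. Those of EC-Rbpj-KO did, since they differ in sex, and in the other groups the array-to-array spread behind each p-value may be technical.

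Cells enter division when D-type cyclins with Cdk4 or Cdk6, then E-type cyclins with Cdk2, inactivate the retinoblastoma protein and release E2F factors, which switch on the genes for DNA replication. A second wave of genes, for the A- and B-type cyclins, Cdk1 and the mitotic kinases, is repressed in resting cells through CHR elements, is activated by NF-Y at CCAAT boxes and peaks in G2 and mitosis. Inhibitors of the Cip/Kip and INK4 families hold the kinases in check. In the early yolk sac the primitive erythroid cells and the endoderm both divide, and Notch signalling is known to act on division in a way that depends on the cell type.

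E2F and CHR letters in the promoters of the members largely follow these waves, while CCAAT letters are common in several roles. Below, 3 stretches are printed because they belong to members whose values are described and carry E2F or CHR letters typical of their wave. A window of 300 bases (250 before and 50 after the annotated start, RefSeq, GRCm38.p6) was given for 36 of the 44 members. The letters searched, on both strands, were TTTCCCGC, TTTGGCGC, TTTCGCGC and TTTGCCGC for E2F, TTTGAA for CHR, CCAAT, and GTGGGAA for RBPJ. The first 2 stretches have E2F letters in capitals (the 2 leftmost matches in Mcm6 overlap), and the third has CHR and CCAAT letters in capitals. CCAAT letters are not marked in the first 2 stretches, and that of Mcm6 holds them on the other strand, 57 bases before the start.
Cdc6, chr11:98907991-98908040, plus strand, 160 to 111 bases before the start: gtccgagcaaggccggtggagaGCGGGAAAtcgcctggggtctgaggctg
Mcm6, chr1:128359736-128359825, minus strand, 120 to 31 bases before the start: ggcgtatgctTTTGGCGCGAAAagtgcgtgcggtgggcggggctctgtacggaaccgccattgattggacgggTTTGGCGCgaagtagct
Cdc20, chr4:118437344-118437413, minus strand, 70 to 1 bases before the start: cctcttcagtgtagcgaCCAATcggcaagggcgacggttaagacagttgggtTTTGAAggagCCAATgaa

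E2F letters stood in the windows of 6 of 11 replication genes (54.5%), 2 of 7 genes of G1 and S phase entry, 1 of 14 genes of G2 and mitosis and 0 of 4 inhibitors, against 2.6% of all 27025 genes with a window. CHR letters stood in 10 of the 14 genes of G2 and mitosis (71.4%), 1 replication gene and none of the genes of the other roles, against 20.2% of all genes. CCAAT letters were in 12 of the 14 genes of G2 and mitosis (85.7%) and 8 of the 11 replication genes (72.7%), against 41.1% of all genes. They were also in 3 of the 4 inhibitors and 3 of the 7 genes of G1 and S phase entry. RBPJ letters were found in 1 member, the replication gene Mcm3, against 7.25% of all genes. These matches describe letters in a short window and are not binding sites.

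Some facts of the arrays stand beside all that follows. Rbpj itself gave signals of 470 and 497 in EC-Rbpj-KO yolk sacs, against 984 and 919 in wild type of the set (log2 fold change -0.98, SE 0.17, adjusted p = 0.00866, limma). Xist, which marks female embryos, was at 3600 and 3730 in EC-N1ICD yolk sacs, at 2005 on EC-Rbpj-KO replicate 1 and at 77 to 96 on the other 5 arrays. Sex and genotype therefore cannot be told apart in the EC-N1ICD set, and EC-Rbpj-KO replicate 1 differs in sex from the other 3 arrays of its set. The ratio of 3' to 5' signal of Actb, a sign of RNA quality, was 1.72 and 1.75 in EC-N1ICD yolk sacs, against 2.10 and 2.34 in their wild type, and 2.29 and 2.09 in EC-Rbpj-KO yolk sacs, against 1.90 and 1.84 in theirs. The same ratio of Gapdh was 2.44 and 2.48 in EC-N1ICD yolk sacs, against 3.12 and 2.76 in their wild type. It was 4.64 and 3.45 in EC-Rbpj-KO yolk sacs, against 3.17 and 3.51 in theirs, so EC-Rbpj-KO replicate 1 had the highest of the 8 arrays. Among the markers, 16 tested primitive erythroid genes had a median log2 fold change of -1.12 in EC-N1ICD yolk sacs and -0.52 in EC-Rbpj-KO ones. The summed signal of the 17 erythroid genes with a probe set, tested or not, was 49497 and 85536 in EC-N1ICD yolk sacs, against 99500 and 104461 in wild type. It was 55567 and 68635 in EC-Rbpj-KO yolk sacs, against 73702 and 70731 in wild type. The median of 8 tested macrophage genes was 1.31 and 1.35, that of 10 endothelial genes 0.08 and 0.54, that of 12 visceral endoderm genes -0.04 and -0.10, that of 7 megakaryocyte genes -0.67 and 0.13 and that of 10 mesothelial and smooth muscle genes 0.38 and 0.15, first for EC-N1ICD, then for EC-Rbpj-KO. All 12 visceral endoderm genes lay above the array median on every array. Of the 12 macrophage genes with a probe set, tested or not, 5 to 8 lay at or below it on the wild type arrays, while 1 to 3 did on the mutant arrays. No marker was at 0. In such bulk samples fewer cells of a type and less RNA per cell cannot be told apart. The part of these differences in the cell cycle values was not tested.

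The first question was whether active Notch1 in the Tie2-Cre lineage changed the RNA of cell cycle genes in the yolk sac. No member passed an adjusted p of 0.05 in EC-N1ICD (limma), where 0.596% of all tested genes did, and 6 of 41 members (14.6%) had an unadjusted p under 0.05, against 12% of all genes. Of these 6, 5 were higher (12.2% of members, against 6.52% of all genes) and 1 lower (2.44%, against 5.47%). The members moved little: their log2 fold changes ran from -0.31 to 0.71 with a median of 0.10 (all genes 0.01), 32 were above and 9 below 0, and the median size was 0.15 (all genes 0.16). The 95% interval lay within a 2-fold change in either direction for 40 of 41 members, against 9563 of all 10913 genes. It lay within 1.5-fold for 23 members, against 4921 of all genes. Both EC-N1ICD arrays lay beyond both wild type arrays for 17 members (41.5%), against 42.6% of all genes.

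The second question was whether loss of Rbpj in the same lineage changed them. In EC-Rbpj-KO yolk sacs 1 member, the replication licensing gene Cdc6, passed the threshold and fell. It was 2.44% of members, against 4.96% of all tested genes that changed and 2.96% that fell. At an unadjusted p under 0.05 there were 10 members (24.4%, against 19.9% of all genes), 5 of them higher (12.2%, against 8.36%) and 5 lower (12.2%, against 11.6%). The log2 fold changes ran from -0.79 to 0.79 with a median of -0.06 (all genes -0.02; 0.02 and 0.05 with median centring), 20 above and 21 not above 0, and a median size of 0.21 (all genes 0.21). The interval lay within 2-fold for 34 of 41 members, against 8984 of all 10913 genes, and within 1.5-fold for 19, against 4053. For 22 members (53.7%) the groups did not overlap, against 50.8% of all genes. The test named in the methods of the study is a t-test, with an n of 5 for RNA analyses, and no separate test is named for the arrays. Used here on 2 against 2 arrays without adjustment, it passed 1 member in EC-N1ICD (2.44%, against 8.6% of all genes) and 3 in EC-Rbpj-KO (7.32%, against 12%). After adjustment 0 members passed in either model (0 and 0.00916% of all genes). No member reached 2-fold in either model, where 1.86% (EC-N1ICD) and 3.38% (EC-Rbpj-KO yolk sacs) of all genes did.

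The difference between both changes, EC-N1ICD minus EC-Rbpj-KO, passed the threshold for 0 of 41 members, against 0.266% of all genes (limma). At an unadjusted p under 0.05 there were 6 members (14.6%, against 10.8% of all genes), 5 positive (12.2%, against 6.67%) and 1 negative (2.44%, against 4.18%). The wild types of the sets differed as well, so levels are compared within a set only: 9 of 41 members (22%) passed between them, against 34% of all genes, 5 of them higher (25.6% of all genes) and 4 lower (8.43% of all genes) in wild type of the EC-Rbpj-KO set.

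**Figure D1:**
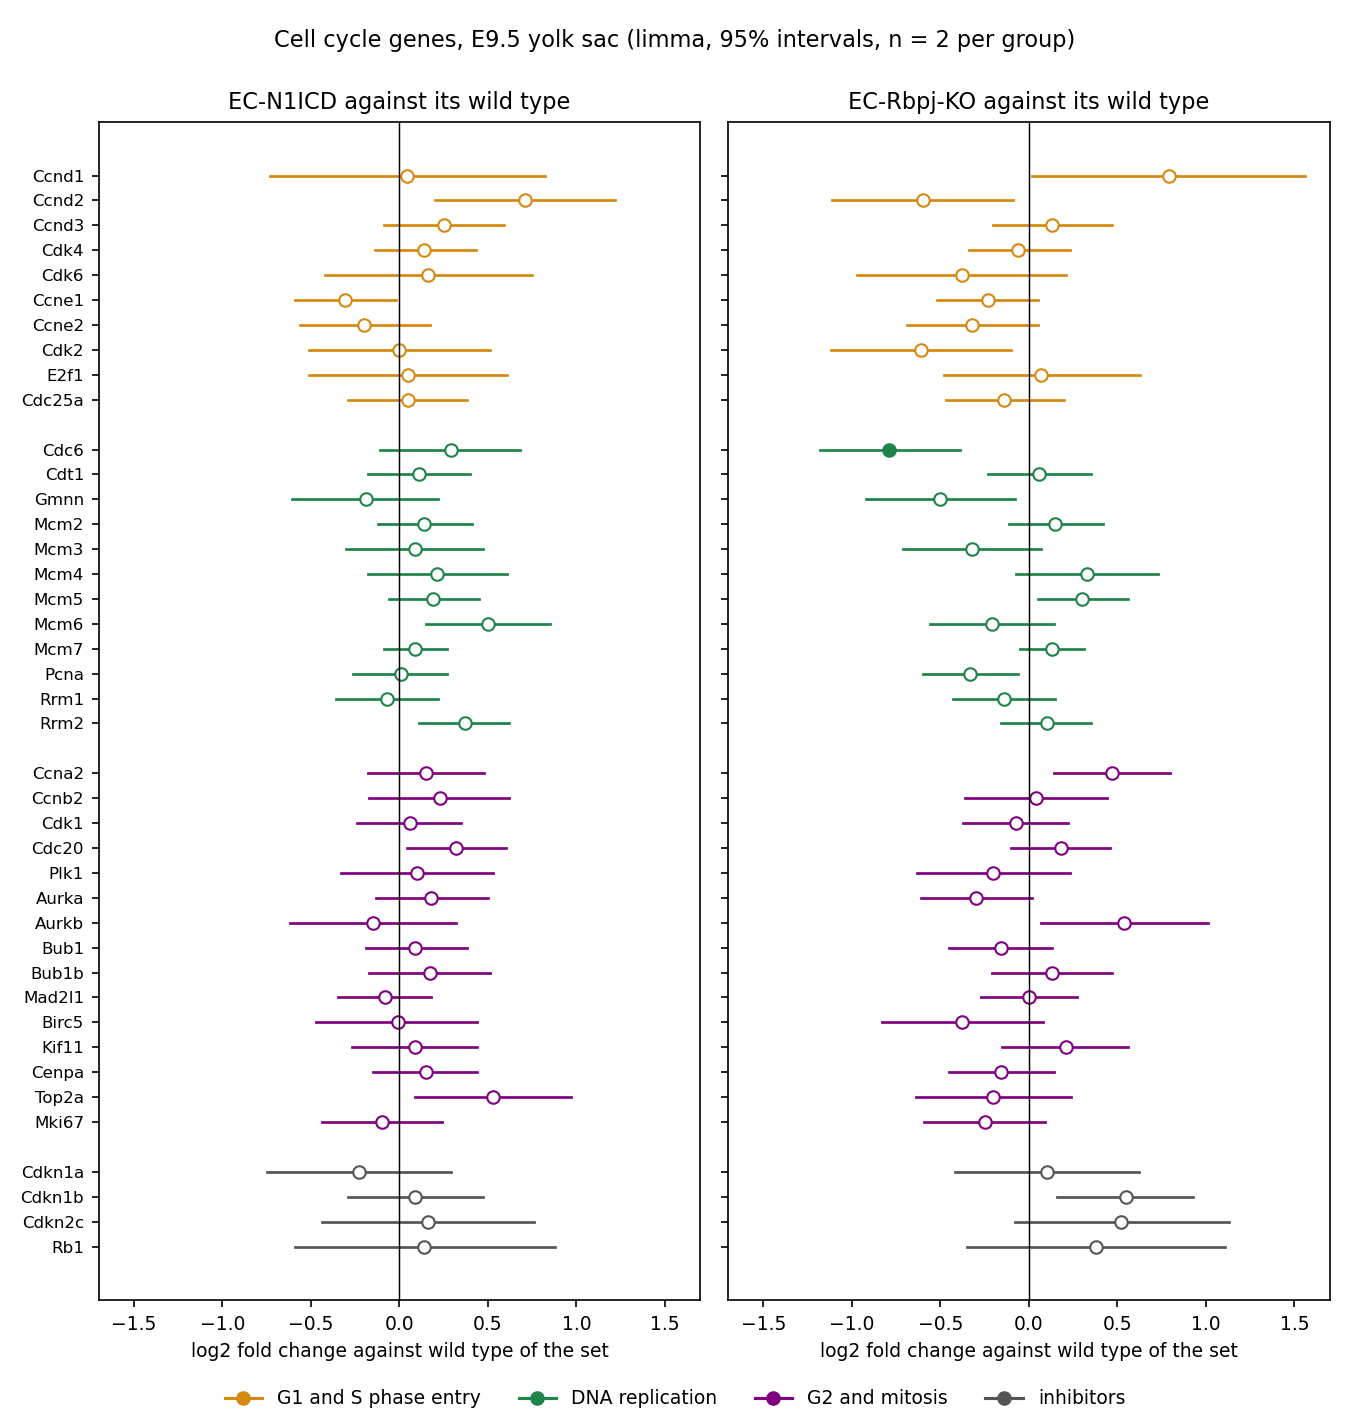
Log2 fold change of each of the 41 tested cell cycle genes against the wild type of the same set (x axis), in EC-N1ICD (left panel) and EC-Rbpj-KO (right panel), with genes by role down the page and bars for the 95% interval from limma (2 arrays per group). A filled circle marks an adjusted p under 0.05, reached by Cdc6 in EC-Rbpj-KO at -0.79. In EC-N1ICD 40 of 41 intervals lie within 2-fold, against 9563 of 10913 over all genes tested.

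Among the genes of G1 and S phase entry, the median log2 fold change was 0.05 in EC-N1ICD yolk sacs and -0.19 in EC-Rbpj-KO, and none of the 10 passed the threshold in either model. Ccnd2, a D-type cyclin that partners Cdk4 and Cdk6, gave signals of 979 and 919 in EC-N1ICD yolk sacs, against 646 and 522 in wild type. In EC-Rbpj-KO yolk sacs Ccnd2 gave signals of 283 and 169, against 344 and 321 in wild type. The groups did not overlap in either set, with EC-N1ICD above and EC-Rbpj-KO below its wild type. The log2 fold change was 0.71 in EC-N1ICD (SE 0.23, 95% interval 0.20 to 1.22, adjusted p = 0.221, limma) and -0.60 in EC-Rbpj-KO (SE 0.23, -1.11 to -0.09, adjusted p = 0.171, limma). The difference between both changes was 1.31 (SE 0.33, unadjusted p = 0.00197, adjusted p = 0.167, limma), the widest in log2 units among the members, and it did not pass the threshold.

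All 7 probe sets of Ccnd2 were above wild type in EC-N1ICD and below it in EC-Rbpj-KO. The 5 probe sets above the filter were at 1.55 to 1.75 times wild type in EC-N1ICD and at 0.658 to 0.806 times wild type in EC-Rbpj-KO. They measure the same RNA samples and are not replicates. EC-Rbpj-KO replicate 1 is from a female embryo and has the highest Gapdh ratio (4.64). Without it the log2 fold change in EC-Rbpj-KO was -0.98 and the difference between the models was 1.68. Without EC-Rbpj-KO replicate 2 instead, the log2 fold change in EC-Rbpj-KO was -0.23, so its size depended on which mutant array was kept. Over the 18 alternatives the log2 fold change of Ccnd2 ran from -0.98 to -0.23 in EC-Rbpj-KO and from -0.04 to 0.86 in EC-N1ICD.

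**Figure D2:**
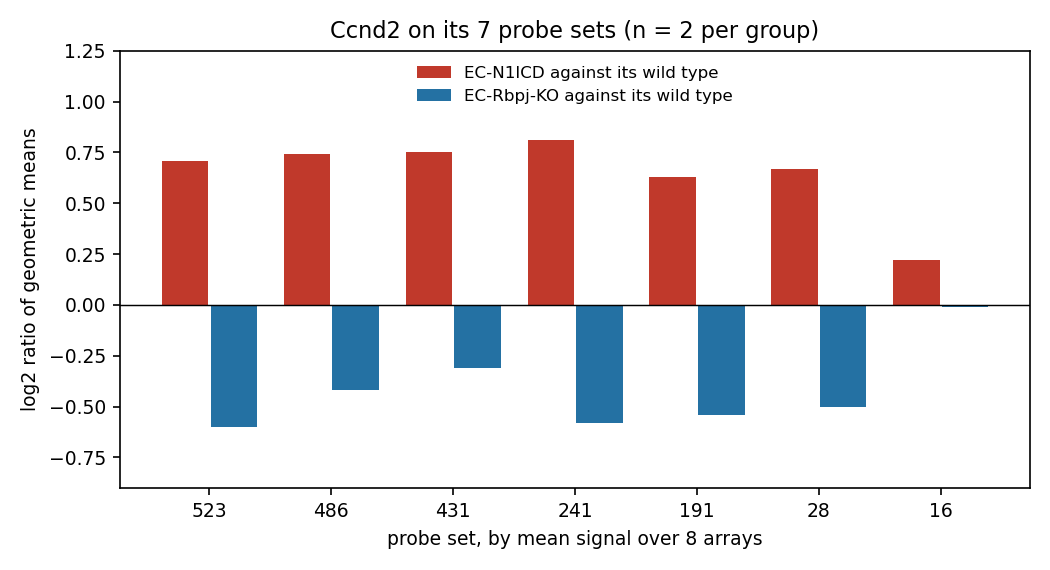
Log2 ratio of geometric means for each of the 7 probe sets of Ccnd2 (x axis, labelled by mean signal over 8 arrays), EC-N1ICD against its wild type in red and EC-Rbpj-KO against its wild type in blue, 2 arrays per group. All red bars are above 0 and all blue bars below it, the last blue bar, at a mean signal of 16, by 0.01.

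Ccnd1, another D-type cyclin, gave signals of 872 and 374 in EC-Rbpj-KO yolk sacs, against 277 and 393 in wild type, so 1 mutant array stood apart and the groups overlapped (log2 fold change 0.79, SE 0.35, adjusted p = 0.237, limma). In EC-N1ICD Ccnd1 was at 324 and 319, against 397 and 245 in wild type. Its 2 other probe sets above the filter gave -0.27 and 0.28 in EC-Rbpj-KO. Ccnd3, the third D-type cyclin, gave signals of 1959 and 2486 in EC-N1ICD yolk sacs, against 1956 and 1755 in wild type (log2 fold change 0.25, adjusted p = 0.584, limma). The 3 D-type cyclins therefore had no common direction in EC-Rbpj-KO, where Ccnd3 was at 0.13.

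Cdk2, the kinase partner of the E-type cyclins, gave signals of 429 and 643 in EC-Rbpj-KO yolk sacs, against 974 and 659 in wild type (log2 fold change -0.61, SE 0.23, 95% interval -1.12 to -0.10, adjusted p = 0.168, limma). The highest mutant array lay just under the lowest wild type array. Cdk2 was at 577 and 679 in EC-N1ICD yolk sacs, against 645 and 605 in wild type (log2 fold change 0.00). Ccne1, an E-type cyclin, gave signals of 2517 and 2850 in EC-N1ICD yolk sacs, against 3428 and 3199 in wild type (log2 fold change -0.31, SE 0.13, adjusted p = 0.371, limma), and was at -0.23 in EC-Rbpj-KO. Ccne1 was the 1 member with an unadjusted p under 0.05 and a lower value in EC-N1ICD. A second probe set of Ccne1 above the filter gave -0.29 in EC-N1ICD. In EC-Rbpj-KO it gave -0.87, with signals of 579 and 522, against 945 and 1068 in wild type. The mean of both probe sets was at -0.55 in EC-Rbpj-KO (adjusted p = 0.0417, limma), so the size of this fall depended on the probe set. The other 5 genes of this role, Cdk4, Cdk6, Ccne2, E2f1 and Cdc25a, ran from -0.20 to 0.16 in EC-N1ICD and from -0.38 to 0.07 in EC-Rbpj-KO.

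The DNA replication genes had a median log2 fold change of 0.13 in EC-N1ICD yolk sacs and -0.04 in EC-Rbpj-KO. Cdc6, which loads the replicative helicase onto origins and whose promoter stretch is printed above, gave signals of 642 and 646 in EC-Rbpj-KO yolk sacs, against 1096 and 1126 in wild type. Both mutant arrays were lower than both wild type arrays, at 0.58 times wild type (log2 fold change -0.79, SE 0.18, 95% interval -1.18 to -0.39, adjusted p = 0.0305, limma). In EC-N1ICD Cdc6 was at 1027 and 1303, against 1088 and 827 in wild type, with overlapping groups (log2 fold change 0.29, adjusted p = 0.601, limma). The difference between the models was 1.07 (SE 0.26, adjusted p = 0.154), so a different response of Cdc6 in the 2 models was not shown at the threshold. The call in EC-Rbpj-KO held in 11 of 18 alternatives, with an adjusted p of 0.0196 to 0.291 and a log2 fold change of -0.81 to -0.71, and it was lost when any 1 of the 4 arrays of the set was left out, with embryo sex as a term (which rests on EC-Rbpj-KO replicate 1 alone), with eBayes without trend and by the adjusted test named in the methods.

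Pcna, the sliding clamp of the replication polymerases, gave signals of 9173 and 7663 in EC-Rbpj-KO yolk sacs, against 9549 and 11635 in wild type (log2 fold change -0.33, adjusted p = 0.155, limma). Mcm5, a subunit of the replicative helicase, was the other way, at 5418 and 6093 in EC-Rbpj-KO yolk sacs, against 5027 and 4310 in wild type (0.30, adjusted p = 0.164), and at 5047 and 5010 in EC-N1ICD yolk sacs, against 4257 and 4542 in wild type (0.19, adjusted p = 0.568). Mcm6, a second helicase subunit, gave signals of 3342 and 3827 in EC-N1ICD yolk sacs, against 2380 and 2694 in wild type (log2 fold change 0.50, SE 0.16, 95% interval 0.15 to 0.85, adjusted p = 0.212, limma). Both mutant arrays were the higher ones, and in EC-Rbpj-KO Mcm6 overlapped its wild type at -0.21. Rrm2, the regulated subunit of ribonucleotide reductase, gave signals of 6800 and 6695 in EC-N1ICD yolk sacs, against 5765 and 4752 in wild type (log2 fold change 0.37, adjusted p = 0.206, limma).

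The 6 subunits of the Mcm2-7 helicase were all above 0 in EC-N1ICD, at 0.09 to 0.50, and were split in EC-Rbpj-KO, where Mcm2, Mcm4, Mcm5 and Mcm7 were at 0.13 to 0.33 and Mcm3 and Mcm6 at -0.32 and -0.21. Other probe sets in EC-Rbpj-KO gave 0.17 for Mcm6, -0.10 for Mcm2 and -0.31 for Mcm7, so the side on which these subunits lay there depended on the probe set. Cdt1, the licensing factor, stood at 0.11 and 0.06, and its inhibitor Gmnn at -0.19 and -0.50, each for EC-N1ICD and then for EC-Rbpj-KO. Rrm1, the other subunit of ribonucleotide reductase, was at -0.07 and -0.14. Tyms gave signals of 46 and 52 in EC-N1ICD yolk sacs, against 53 and 19 in wild type, and of 81 and 38 in EC-Rbpj-KO yolk sacs, against 28 and 49 in wild type, close to the array medians of 38 to 51.

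The genes of G2 and mitosis had a median log2 fold change of 0.10 in EC-N1ICD yolk sacs and -0.07 in EC-Rbpj-KO, and none of the 15 tested passed the threshold. Ccna2, the A-type cyclin of S phase and G2, gave signals of 3139 and 4374 in EC-Rbpj-KO yolk sacs, against 2749 and 2605 in wild type. Both mutant arrays were higher (log2 fold change 0.47, SE 0.15, 95% interval 0.14 to 0.80, adjusted p = 0.0999, limma), while a second probe set of the gene gave 0.10. Ccna2 was at 0.15 in EC-N1ICD. Aurkb, the chromosomal passenger kinase, gave signals of 1420 and 947 in EC-Rbpj-KO yolk sacs, against 790 and 801 in wild type (0.54, adjusted p = 0.182), and its second probe set gave -0.01. Aurka, the spindle pole kinase, was at 1525 and 1851 in EC-Rbpj-KO yolk sacs, against 1980 and 2151 in wild type (-0.30, adjusted p = 0.278), and at 1945 and 1889 in EC-N1ICD yolk sacs, against 1628 and 1756 in wild type (0.18, adjusted p = 0.709).

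Top2a, the topoisomerase that untangles chromosomes, gave signals of 3483 and 3534 in EC-N1ICD yolk sacs, against 1883 and 3129 in wild type (log2 fold change 0.53, SE 0.20, adjusted p = 0.301, limma). The size rests on 1 wild type array, and the mean over all probe sets of the gene gave 0.08. That mean gives equal weight to far weaker probe sets, at mean signals of 112.4 and 22.88 (below the filter), against 2992 for the one used. Cdc20, the activator of the anaphase-promoting complex, whose promoter stretch has CHR and CCAAT letters, gave signals of 8795 and 7680 in EC-N1ICD yolk sacs, against 6878 and 6324 in wild type (0.32, SE 0.13, adjusted p = 0.344). Mki67, the usual marker of dividing cells and named here after its values were seen, gave signals of 4517 and 6297 in EC-N1ICD yolk sacs, against 5811 and 5608 in wild type, and of 4413 and 4674 in EC-Rbpj-KO yolk sacs, against 6028 and 4841 in wild type. Its log2 fold change was -0.10 (95% interval -0.44 to 0.24) in EC-N1ICD yolk sacs and -0.25 (-0.59 to 0.09) in EC-Rbpj-KO ones, so that neither interval reached a 2-fold change. The other 9 genes of this role (Ccnb2, Cdk1, Plk1, Bub1, Bub1b, Mad2l1, Birc5, Kif11 and Cenpa) ran from -0.08 to 0.23 in EC-N1ICD and from -0.38 to 0.21 in EC-Rbpj-KO.

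The 4 inhibitors measured were all above 0 in EC-Rbpj-KO on their brightest probe sets, at 0.10 to 0.55. Their median was 0.45, and none passed the threshold. A second probe set of Cdkn1a above the filter gave -0.10, so the side on which this gene lay depended on the probe set. Without EC-Rbpj-KO replicate 2 Cdkn1a was at -0.23 there, and without replicate 1 Rb1 was at -0.10. Cdkn1b, which encodes p27, gave signals of 799 and 754 in EC-Rbpj-KO yolk sacs, against 538 and 526 in wild type. The groups were well apart (log2 fold change 0.55, SE 0.17, 95% interval 0.16 to 0.93, adjusted p = 0.102, limma), and a second probe set gave 0.60. With quantile normalization Cdkn1b was at 0.64 (adjusted p = 0.0335, limma) and with median centring at 0.62 (adjusted p = 0.0365, limma). It passed in only these 2 of 18 alternatives, which ran from 0.50 to 0.64. In EC-N1ICD Cdkn1b was at 284 and 348, against 315 and 276 in wild type, with overlapping groups (0.09). Cdkn2c, which encodes the INK4 inhibitor p18, gave signals of 328 and 472 in EC-Rbpj-KO yolk sacs, against 302 and 248 in wild type (0.52, adjusted p = 0.319), and of 185 and 307 in EC-N1ICD yolk sacs, against 184 and 247 in wild type (0.16).

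Cdkn1a, which encodes p21 and is induced by p53, gave signals of 1028 and 1614 in EC-Rbpj-KO yolk sacs, against 1431 and 1010 in wild type, and of 556 and 575 in EC-N1ICD yolk sacs, against 750 and 585 in wild type. The groups overlapped in EC-Rbpj-KO (log2 fold change 0.10) and were only just apart in EC-N1ICD (-0.23, adjusted p = 0.798, limma). Rb1, the retinoblastoma gene, was at 442 and 227 in EC-Rbpj-KO yolk sacs, against 317 and 187 in wild type, and at 135 and 191 in EC-N1ICD yolk sacs, against 154 and 137 in wild type, overlapping in both sets.

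**Figure D3:**
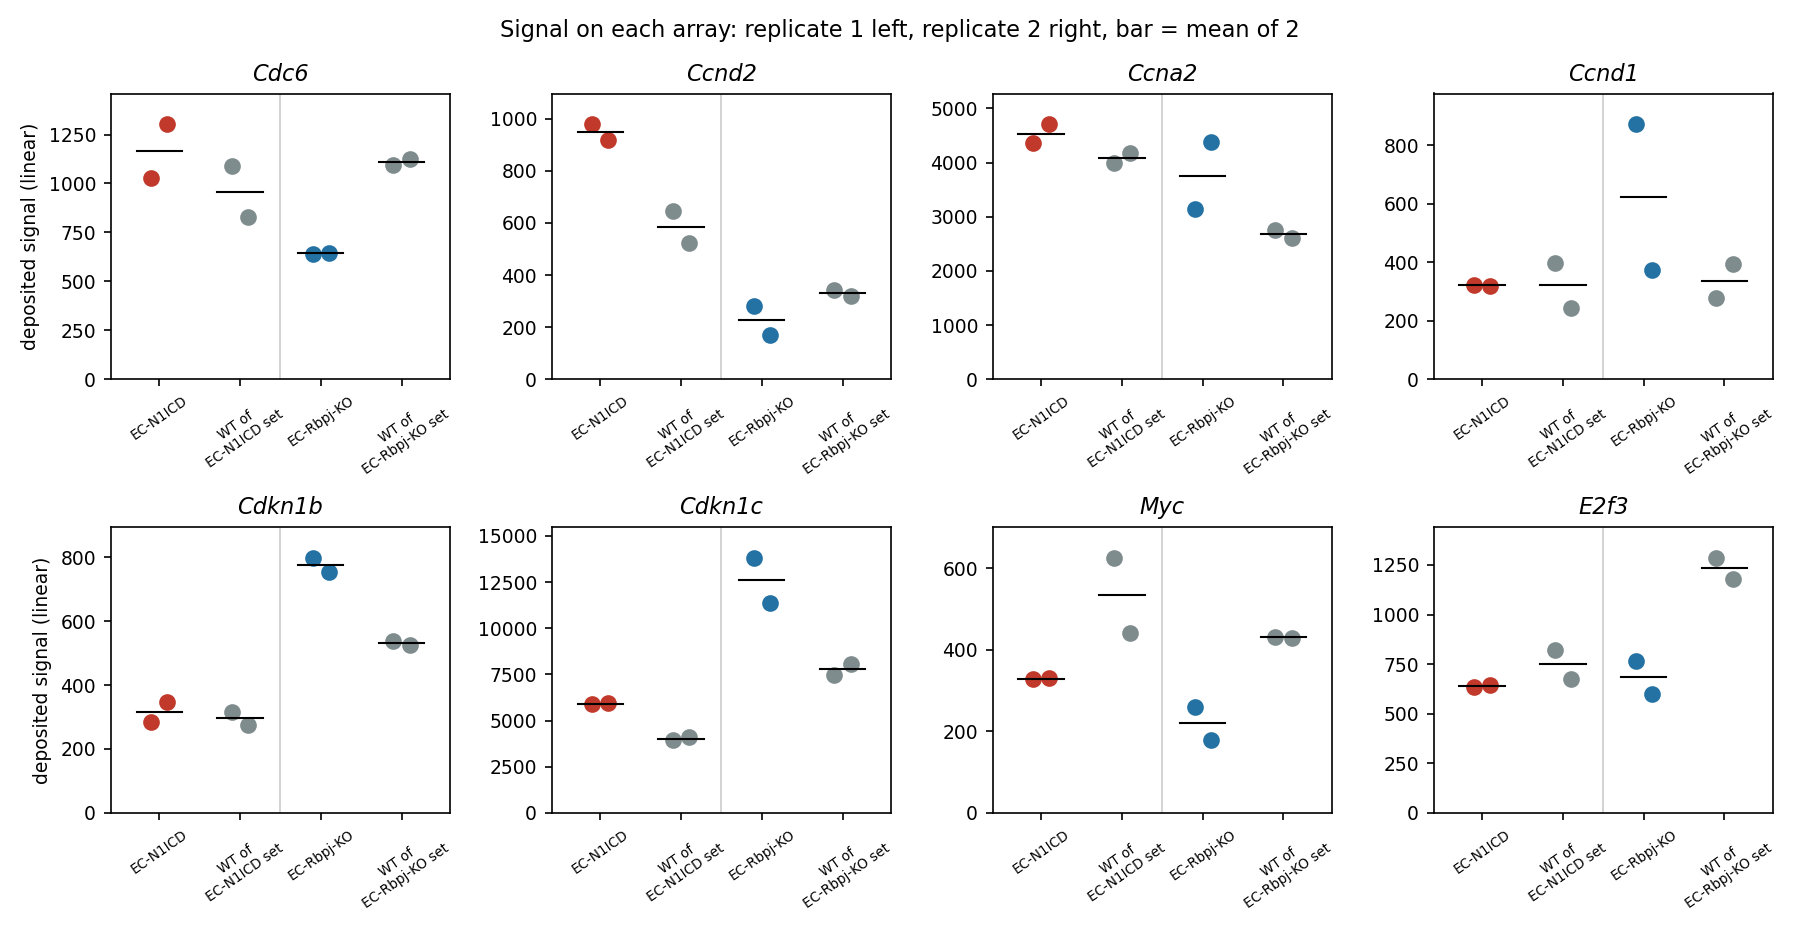
Deposited signal (linear, y axis from 0) on each of the 8 arrays for 8 genes, by group on the x axis, with replicate 1 on the left, replicate 2 on the right and a bar at the mean of 2 (red EC-N1ICD, blue EC-Rbpj-KO, grey wild type, WT, of each set). Cdc6 is lower on both EC-Rbpj-KO arrays (642 and 646) than on both wild type arrays (1096 and 1126), and Cdkn1c is higher on both arrays of each mutant than on the wild type arrays of its set.

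By array, the median of all 41 members relative to the wild type mean of the set was 0.07 and 0.17 in EC-N1ICD, against 0.06 and -0.06 in its wild type, and -0.01 and -0.10 in EC-Rbpj-KO yolk sacs, against 0.01 and -0.01 in their wild type. The genes of G1 and S phase entry were at -0.19 and -0.26 in EC-Rbpj-KO yolk sacs, against 0.05 and -0.05 in wild type, and the inhibitors at 0.42 and 0.46, against 0.20 and -0.20. The erythroid markers were far more uneven, at -1.82 and -0.38 in EC-N1ICD, against 0.14 and -0.14, and at -0.88 and -0.01 in EC-Rbpj-KO yolk sacs, against 0.22 and -0.22. The replicates of a group differed for the median member by 0.12 in EC-N1ICD, against 0.19 in its wild type, and by 0.27 in EC-Rbpj-KO, against 0.14 in its wild type (absolute log2 difference).

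**Figure D4:**
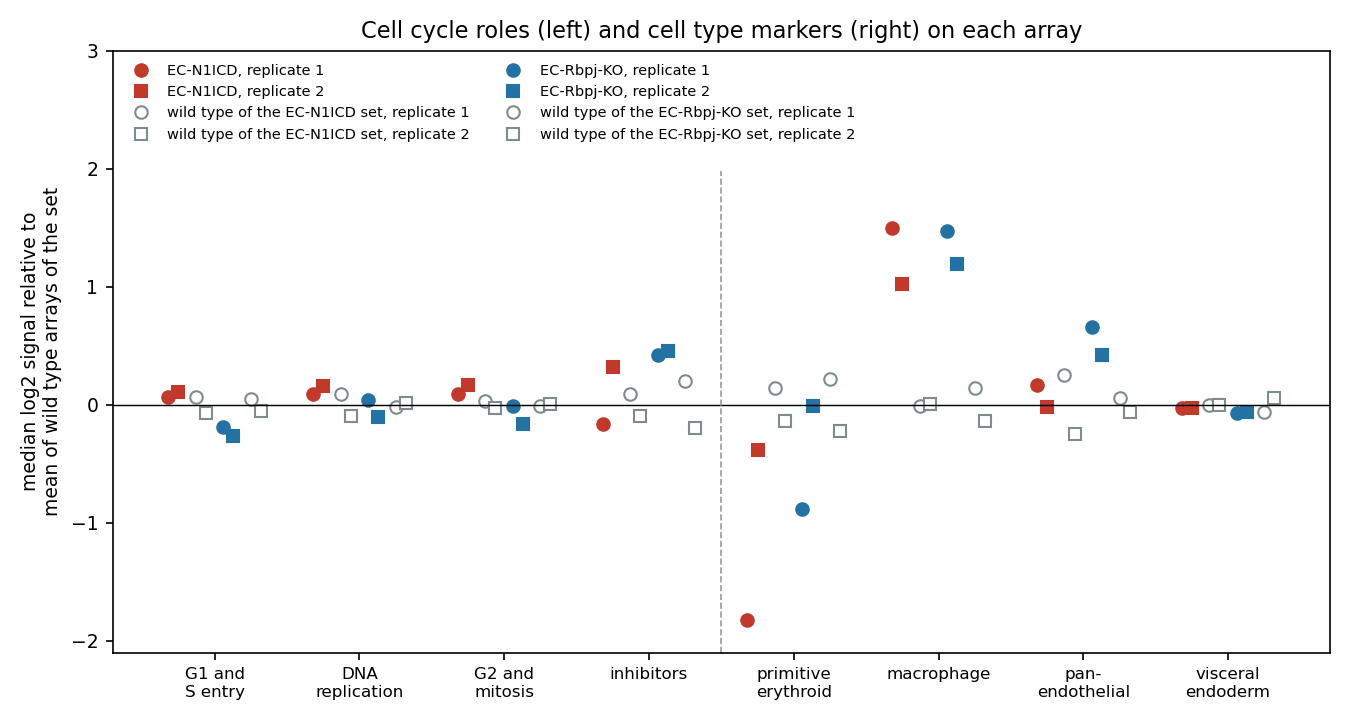
Median log2 signal by array, minus the average of both wild type arrays in that set (y axis), for the 4 cell cycle roles (left of the dashed line) and 4 lists of cell type markers (right), with filled symbols for mutants, open symbols for wild type, circles for replicate 1 and squares for replicate 2. The cell cycle medians lie between -0.26 and 0.46, while the erythroid markers reach -1.82 on EC-N1ICD replicate 1.

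Other genes of the cell cycle were taken from 4 further lists. The first held 23 tested regulators, mostly of G1 and S phase, but also Wee1, which acts on Cdk1. Of these, 1 rose in EC-N1ICD, and 2 rose and 2 fell in EC-Rbpj-KO (medians -0.01 and -0.03), where 0.596% and 4.96% of all tested genes passed. Cdkn1c, which encodes the third Cip/Kip inhibitor p57 and is expressed from the maternal allele, rose in both models. It gave signals of 5914 and 5924 in EC-N1ICD yolk sacs, against 3944 and 4081 in wild type (log2 fold change 0.56, SE 0.11, adjusted p = 0.0474, limma), and of 13823 and 11372 in EC-Rbpj-KO yolk sacs, against 7471 and 8084 in wild type (0.69, SE 0.11, adjusted p = 0.00497). The call in EC-Rbpj-KO held in 17 of 18 alternatives and that in EC-N1ICD in 5 of 18: leaving out any 1 array of the EC-N1ICD set, or either wild type array of the EC-Rbpj-KO set, ended it.

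Wee1, the kinase that restrains Cdk1, rose in EC-Rbpj-KO, with signals of 2695 and 2215, against 1509 and 1631 in wild type (log2 fold change 0.64, adjusted p = 0.0466, limma; held in 7 of 18 alternatives, and was at 0.25 by the mean of all probe sets). E2f3, one of the activating E2F factors, fell, with signals of 768 and 600 in EC-Rbpj-KO yolk sacs, against 1287 and 1178 in wild type (-0.86, adjusted p = 0.0188; 12 of 18). Myc, the growth-promoting transcription factor, fell as well, with signals of 260 and 179 in EC-Rbpj-KO yolk sacs, against 431 and 430 in wild type (0.501 times wild type, 95% interval of the log2 fold change -1.49 to -0.51, adjusted p = 0.0278; 12 of 18). In EC-N1ICD Myc was at 328 and 330, against 626 and 441 in wild type (-0.68, adjusted p = 0.229), and both mutants lay below their wild type.

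Of 37 other replication genes, Rpa1, a subunit of the protein that coats single-stranded DNA, rose in EC-Rbpj-KO, with signals of 6139 and 6519, against 4688 and 4930 in wild type (0.40, adjusted p = 0.0429, limma; 6 of 18). The calls of Wee1, E2f3, Myc and Rpa1 were each lost when either wild type array of the EC-Rbpj-KO set was left out. Those of E2f3, Myc and Rpa1 were also lost without EC-Rbpj-KO replicate 2, those of Wee1 and Rpa1 without replicate 1 and without either EC-N1ICD array. None of the 37 passed in EC-N1ICD, and the medians were 0.06 in EC-N1ICD yolk sacs and -0.02 in EC-Rbpj-KO. None of 37 other mitotic genes passed in either model (medians 0.10 and 0.11), with 4 and 6 at an unadjusted p under 0.05, which 12% and 19.9% of all genes reached. None of 12 tested targets of p53 passed (medians -0.02 and -0.12), with 3 and 2 at that unadjusted p.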

How the data were processed

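The deposited intensity values were 1 linear signal per probe set and array, which the authors made with MAS5 per the labels (version and scaling not given in the sources used here); they ran from 7 to 36554 on 45101 probe sets, with no detection calls. Total RNA was biotin-labelled from oligo-dT primed cDNA, so the probes read mostly 3' ends. Of the probe sets, 34958 name 1 gene in the platform annotation, 932 several and 9211 none. Each gene was read from its brightest probe set by mean signal, and genes above the 40th percentile of mean signal, which is a signal of 68, were tested. The fit used limma 3.58.1 (R 4.3.3) on log2 signals (4 groups, eBayes with trend, 4 residual and 7.37 prior degrees of freedom), with two-sided p-values adjusted by Benjamini-Hochberg over all 10913 genes at 0.05. The script was tested on simulated data. The number of arrays limits the precision.

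Members and lists were chosen with earlier results of these data known. Arrays were grouped by their labels. Values by array are given for members past the threshold, for the inhibitors and for the 3 members of each other role with the smallest p in each comparison, and for genes of the other lists past the threshold. Alternatives changed the normalization, constant, filter, probe set, fit, test, sex term and arrays. Genes with no probe set naming 1 gene in the tables used were not analysed here. Promoter windows are from RefSeq.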

Additional observations from a re-analysis of the deposited data

How the results depend on the processing

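The count of members past the threshold stayed at 0 in EC-N1ICD under every alternative fitted with limma, leaving out any array included, and was 1 (Ccnd2) by the test named in the methods without adjustment. In EC-Rbpj-KO the count was 1, and became 2 with quantile normalization or median centring (Cdc6 and Cdkn1b) and with the mean of all probe sets (Cdc6 and Ccne1), 0 with eBayes without trend, and 4 with sex in the fit (Ccnd2, Gmnn, Ccna2 and Birc5). The sex term can be estimated from EC-Rbpj-KO replicate 1 alone, so in EC-Rbpj-KO this fit gives the log2 fold changes obtained by leaving that array out and says nothing on sex in the EC-N1ICD set. The test named in the methods gave 3 (Cdc6, Mcm2 and Cdkn1b) without adjustment and 0 with it. Leaving out 1 array in turn gave 0 to 4 members: 4 without EC-Rbpj-KO replicate 1 (Ccnd2 at -0.98, Gmnn at -0.80, Ccna2 at 0.71 and Birc5 at -0.75), 1 without EC-Rbpj-KO replicate 2 (Ccnd1 at 1.40) and 0 without either wild type array of that set. For the difference between the models the count of 0 became 0 to 1 when an array was left out (Ccnd2 at 1.68 without EC-Rbpj-KO replicate 1). The cause was not tested. No value past the threshold in limma changed sign. Over all genes the counts ran from 7 to 140 in EC-N1ICD (65 as reported, lowest without EC-N1ICD replicate 1), from 147 to 675 in EC-Rbpj-KO (541 as reported; 218 higher and 323 lower, against 375 and 300 with median centring) and from 3 to 80 for the difference (29 as reported). Of 27 members with several probe sets above the filter, 18 (EC-N1ICD) and 14 (EC-Rbpj-KO yolk sacs) had 1 direction on all of them. No paired analysis was possible because the replicate numbers only follow the sample order, and the leading number of the sample names, whose meaning the labels do not give, is the same for mutant replicate 2 and both wild type arrays of a set but another for mutant replicate 1, so that the groups share 1 such number.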

Other observations

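More cell cycle genes passed the threshold between the 2 wild type groups than between either mutant and its own wild type, in a comparison chosen after the values were seen. Of 41 members, 9 passed the threshold (22%, against 34% of all genes; limma), 5 higher and 4 lower in wild type of the EC-Rbpj-KO set than in wild type of the EC-N1ICD set. Cdkn1b had signals of 538 and 526 in wild type of the EC-Rbpj-KO set, against 315 and 276 in wild type of the EC-N1ICD set (log2 difference 0.85, adjusted p = 0.00387), and Cdkn1a was at 1431 and 1010, against 750 and 585 (0.86, adjusted p = 0.0171). Ccnd2 was at 344 and 321, against 646 and 522 (-0.81, adjusted p = 0.0208), and Ccna2 at 2749 and 2605, against 3987 and 4171 (-0.61, adjusted p = 0.00972). Mcm6, Bub1 and Kif11 were the other genes that were higher, at 0.57, 0.51 and 0.61, and Ccne1 and Rrm1 the other genes that were lower, at -0.43 and -0.44. Strain and array set cannot be told apart in this comparison.

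Mycn, a relative of Myc and named after its values were seen, had signals of 769 and 669 in EC-N1ICD yolk sacs, against 475 and 438 in wild type, and of 324 and 294 in EC-Rbpj-KO yolk sacs, against 422 and 546 in wild type. The log2 fold change was 0.65 (adjusted p = 0.161, limma) in EC-N1ICD and -0.64 (adjusted p = 0.0727) in EC-Rbpj-KO, and the difference of 1.29 between the models (SE 0.26, adjusted p = 0.0765) did not pass the threshold. A second probe set above the filter went the other way, at -0.23 in EC-N1ICD yolk sacs and 0.19 in EC-Rbpj-KO.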
